A study of Mus musculus with 14 samples.

Results

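The genes described here were 10 endothelial and angiogenic receptor genes, chosen by symbol from the 53801 genes of the tables. They comprised 4 genes of vessel identity (Pecam1, Cdh5, Emcn and Vwf), 4 angiogenic receptor kinases (Kdr, Flt1, Tek and Tie1) and 2 leukocyte adhesion genes that activated endothelium is known for (Vcam1 and Icam1). All 10 were among the 16287 genes with enough counts to be tested. The first 8 are called the vessel genes below.

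Bulk RNA-seq had been made from 14 tumors of CT26, a mouse colon carcinoma line, carrying a library of DNA barcodes and grown under the skin of both flanks of female BALB/c mice aged 6 to 8 weeks. Treatment began 7 days after transplantation and was given every 3 days for 5 treatments, and the tumors were taken 3 days after the last. Of the tumors, 5 from 4 mice had received control IgG, and 9 had received an anti-PD-1 antibody, which blocks an inhibitory receptor of T cells. The treated tumors were labelled responders (5 tumors, 4 mice) or non-responders (4 tumors, 3 mice), a division the study made by tumor size after treatment. Each tumor is named by the number of its mouse and its flank, L or R, and 3 mice gave both tumors (14, 30 and 33), so tumors of a group were not all independent animals. In a piece of whole tumor, fewer vessel cells and less RNA of a gene per vessel cell cannot be told apart. The RNA of Vcam1 and Icam1 can also come from fibroblasts, macrophages, the cancer cells and other cells.

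Vessels grow and persist under control of growth factors that bind receptor tyrosine kinases on endothelial cells: VEGF binds the products of Kdr and Flt1, and the angiopoietins bind the product of Tek. Endothelial cells hold together through VE-cadherin and PECAM1, and inflamed endothelium displays VCAM1 and ICAM1, to which integrins of leukocytes attach before the cells leave the blood. The presence of vessels and the display of adhesion molecules are thus distinct properties of the same wall.

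Libraries held 33237744 to 48481461 expected counts. The 10 genes took between 0.0388% of the counts (tumor 33R) and 0.0763% (tumor 24L), and their counts ran from 54 for Vwf in tumor 33R to 19176 for Vcam1 in tumor 24L. The library of 33R had the longest fragments (mean 288 bases against 269 to 282 in the others) and the lowest scaling factor (0.917). The results below were therefore also computed without each tumor in turn.

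The 8 vessel genes were detected in each of the 14 tumors, which carried endothelial RNA by their defining markers. Levels between genes were compared in TPM, which accounts for transcript length. Vcam1 stood far above the others, with a mean over the 14 tumors of 124 TPM, followed by Pecam1 (32.3 TPM), Cdh5 (21.7 TPM), Emcn (13.9 TPM), Icam1 (9.88 TPM), Flt1 (7.86 TPM), Tie1 (6.56 TPM), Kdr (4.68 TPM), Tek (1.57 TPM) and Vwf (1.44 TPM). Neighbours in this order from Pecam1 downwards overlapped in their ranges over tumors, such as Pecam1 (19.1 to 48.3 TPM) and Cdh5 (9.90 to 32.4 TPM), whereas the lowest value of Vcam1, 61.4 TPM, lay above the highest of Pecam1. Levels between tumors are given in CPM, library-size-normalized counts scaled by the TMM method of edgeR, because the deposited transcript lengths of some genes varied from tumor to tumor, as described further down.

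**Figure D1:**
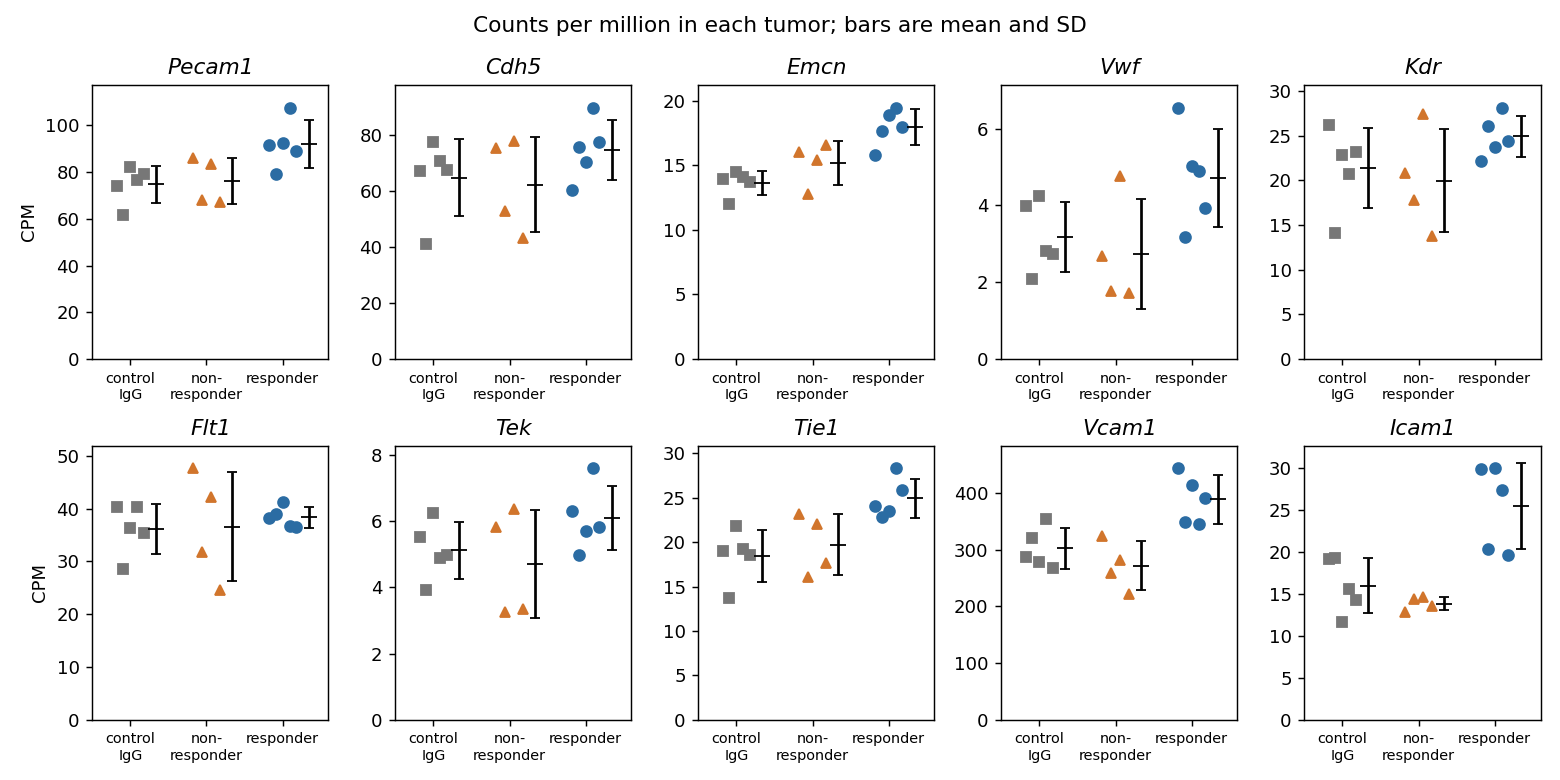
Normalized counts (CPM, linear axis from 0) of the 10 genes in each tumor, by group, with the mean and SD beside the points. Icam1 is higher in all 5 responders than in any other tumor, while for Flt1 the responders lie inside the range of the non-responders.

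Between responders and non-responders, the adhesion genes Icam1 and Vcam1 rose and none of the 8 vessel genes passed the test, although all 10 had a higher fitted level in responders. Icam1 was 1.84-fold and Vcam1 1.43-fold higher in responders, by edgeR's quasi-likelihood test with Benjamini-Hochberg adjustment over all genes. Of all genes tested, 5.08% were called higher and 4.82% lower in this comparison, so 2 of 10 called higher is a larger share than the background, in a list of few genes. Fitted changes were positive in 10 of the 10 genes, with a median of 0.33, against 50.8% of all genes and a median of 0.01. The vessel genes varied together from tumor to tumor (described below), so their signs are not separate observations.

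Icam1 (ENSMUSG00000037405, chr9:21015985-21028817, plus strand, mm10) encodes ICAM1, the ligand of the integrin LFA-1, and is known to be induced by interferon gamma and tumor necrosis factor. Its levels in responders were 29.9 CPM in tumor 24L, 20.3 CPM in 26R, 29.9 CPM in 30L, 27.3 CPM in 30R and 19.6 CPM in 35L. In non-responders they were 12.8 CPM in 29L, 14.3 CPM in 32R, 14.6 CPM in 33L and 13.6 CPM in 33R, and in control tumors 19.1 CPM in 14L, 19.2 CPM in 14R, 11.7 CPM in 16R, 15.5 CPM in 17R and 14.2 CPM in 20R. The 5 responders were the 5 highest tumors, but they split into 3 near 30 CPM and a pair (26R and 35L) that lay only just above the control tumors of mouse 14. The non-responders were close together, with a mean of 13.8 ± 0.790 CPM (SD, n = 4), against 25.4 ± 5.09 CPM for the responders (SD, n = 5) and 15.9 ± 3.24 CPM for the controls (SD, n = 5). The log2 fold change was 0.88 (SE 0.16, adjusted p = 0.0096) against non-responders and 0.67 (SE 0.15, adjusted p = 0.0106) against controls. Both calls held in each of the 14 fits that left out 1 tumor and in all 11 other ways of processing. The exact permutation test over tumors gave p = 0.0159 against non-responders and p = 0.00794 against controls, the smallest that 5 against 5 tumors can give. That test took the tumors of a mouse as independent, so its p-values may be too small, here and below.

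The 250 bases before the RefSeq start of Icam1 are shown because its change was the largest called among the 10 genes. The gene positions printed with each gene are those of GENCODE, and their starts can differ from the RefSeq starts by some bases. The sequence is that of RefSeq on GRCm38.p6, chr9:21015690-21015939, plus strand, in which 3 motifs were searched on both strands: GGAANTTCC, resembling sites of NF-kappaB, TTCNNNGAA, resembling interferon-gamma-activated sites, and CCGGAA, the core of ETS sites. Capitals mark every match.

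Icam1: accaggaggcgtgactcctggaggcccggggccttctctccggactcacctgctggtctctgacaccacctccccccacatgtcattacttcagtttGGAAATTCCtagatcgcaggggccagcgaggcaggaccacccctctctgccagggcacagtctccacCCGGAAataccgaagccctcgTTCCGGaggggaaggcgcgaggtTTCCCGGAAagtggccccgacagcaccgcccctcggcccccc

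The window held the first motif from position -153 to -145, counted back from the RefSeq start, the second from -42 to -34, and the third at 3 places, the last of which (-39 to -34) lies inside the match to the second. Of 32536 windows of the same length before gene starts, 0.811% held the first motif, 7.04% the second and 12.1% the third. These matches describe the letters only and no binding was measured. RefSeq windows were found for 6 of the 10 genes: Emcn, Kdr, Flt1, Tek, Tie1 and Icam1. Among the others, the first and second motifs had no match in the 5 windows of vessel genes, and the third had 1, in Kdr.

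Vcam1 (ENSMUSG00000027962, chr3:116109949-116129688, minus strand) encodes VCAM1, which binds integrin alpha4 beta1 of lymphocytes and monocytes. It stood at 444 CPM in tumor 24L, 349 CPM in 26R, 414 CPM in 30L, 345 CPM in 30R and 392 CPM in 35L among responders. The non-responders had 325 CPM in 29L, 258 CPM in 32R, 282 CPM in 33L and 222 CPM in 33R, and the controls 288 CPM in 14L, 321 CPM in 14R, 278 CPM in 16R, 355 CPM in 17R and 268 CPM in 20R. The responders lay above all non-responders, by a small gap between 30R and 29L, whereas control 17R lay above the responders 26R and 30R. Its log2 fold change was 0.52 against non-responders (SE 0.12, adjusted p = 0.0192, exact permutation p = 0.0159) and 0.36 against controls (SE 0.11, adjusted p = 0.0463, exact permutation p = 0.0238). The call against non-responders held in 12 of 14 fits without 1 tumor and was lost without 24L (adjusted p = 0.0539) or 32R (adjusted p = 0.0571). The call against controls held in 4 of 14, and was lost without 14L, 14R, 16R, 20R, 24L, 30L, 30R, 32R, 33L or 35L, with an adjusted p between 0.0511 and 0.125. Of the 11 other ways of processing, the call against non-responders held in 11 and that against controls in 8 (adjusted p up to 0.0633).

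The responders and non-responders did not overlap in 2 of the 10 genes, Icam1 and Vcam1, against 12.8% of all genes tested. At an unadjusted p under 0.05, 6 of 10 passed (Icam1, Vcam1, Emcn, Vwf, Tie1 and Pecam1), against 27.8% of all genes. The 0 calls among the 8 vessel genes by edgeR were also 0 by DESeq2 and by limma-voom, with 4 of the 8 at an unadjusted p under 0.05. Limma-voom with mouse as a random effect called Vwf (adjusted p = 0.0366), and limma on log2(TPM + 1) and on log2(TPM + 0.1) called Pecam1, Emcn and Vwf. The 95% interval of the fold, not adjusted for the number of genes, ran from 1.03 to 1.42 for Pecam1, from 0.899 to 1.60 for Cdh5 and from 1.08 to 2.75 for Vwf. Those of Pecam1 and Vwf left out a fold of 1, whereas calls were made on p-values adjusted over all genes. Missing the threshold does not show that these genes were at the same level in both groups.

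**Figure D2:**
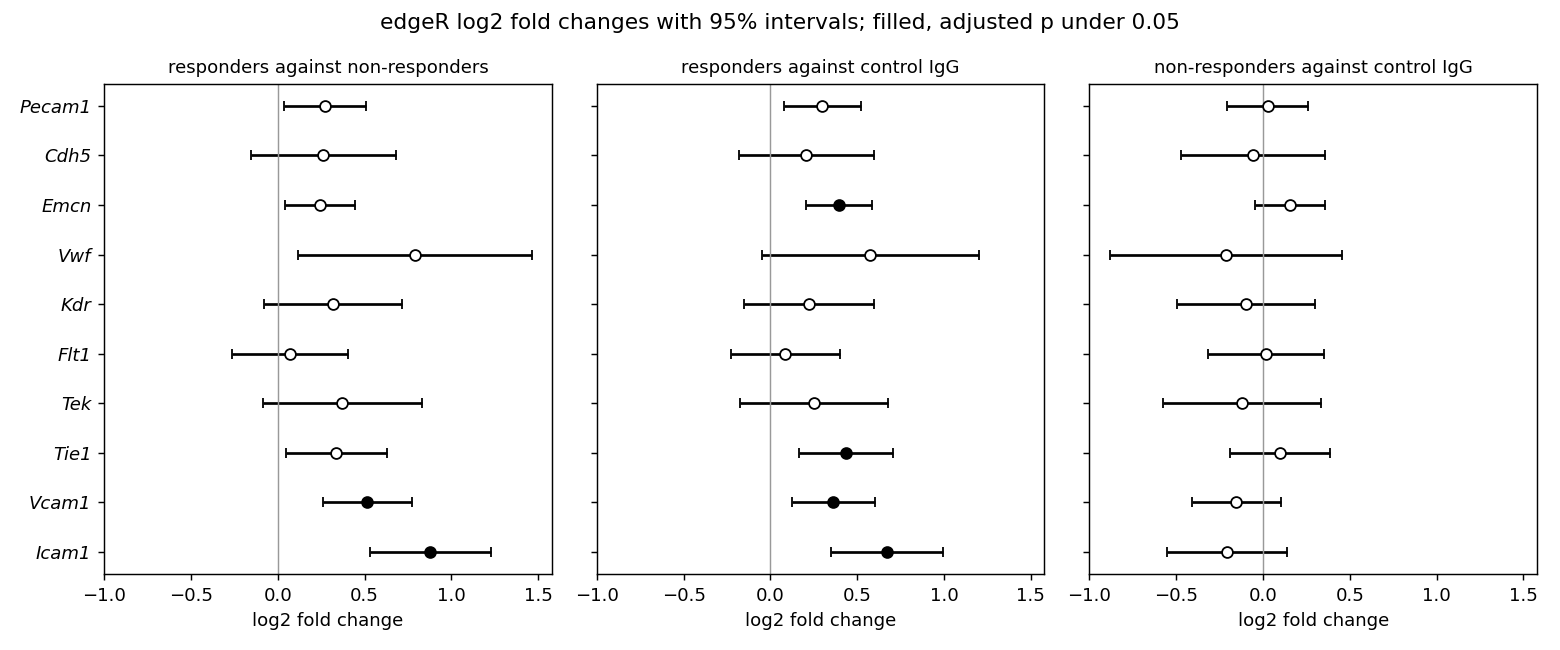
Log2 fold changes of the 10 genes in the 3 comparisons (horizontal axis) from edgeR, with 95% intervals not adjusted for the number of genes. Filled points have an adjusted p under 0.05. Icam1 and Vcam1 are filled against non-responders, Icam1, Tie1, Emcn and Vcam1 against control IgG, and none between non-responders and control IgG.

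The genes of vessel identity differed in how tightly the groups clustered. Pecam1 (ENSMUSG00000020717, chr11:106654217-106750628, minus strand) encodes PECAM1 (CD31), a junction protein also carried by platelets and leukocytes. It was at 91.8, 79.1, 92.6, 107.6 and 88.9 CPM in responders 24L, 26R, 30L, 30R and 35L, at 86.2, 68.1, 83.4 and 67.0 CPM in non-responders 29L, 32R, 33L and 33R, and at 74.1, 61.6, 82.2, 76.8 and 79.2 CPM in controls 14L, 14R, 16R, 17R and 20R. Of the 5 responders, 4 lay above every other tumor, and 26R lay below 2 non-responders and 2 controls. Its log2 fold change was 0.27 (SE 0.11, adjusted p = 0.125) against non-responders and 0.30 (SE 0.10, adjusted p = 0.0714) against controls. The comparison with controls passed the threshold without 26R (adjusted p = 0.0483) or without 33R (adjusted p = 0.0406).

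Emcn (ENSMUSG00000054690, chr3:137341067-137432185, plus strand) encodes endomucin, a sialoglycoprotein of capillary and venous endothelium. Its values in responders were 15.8, 17.7, 18.9, 19.5 and 17.99 CPM in 24L, 26R, 30L, 30R and 35L. They were 16.0, 12.8, 15.4 and 16.6 CPM in non-responders 29L, 32R, 33L and 33R, and 14.0, 12, 14.5, 14.1 and 13.7 CPM in controls 14L, 14R, 16R, 17R and 20R. All responders lay above all controls, while 24L lay below the non-responders 29L and 33R. Emcn rose by 0.40 on the log2 scale against controls (SE 0.09, adjusted p = 0.0102, exact permutation p = 0.00794), a call that held in 14 of 14 fits without 1 tumor. Against non-responders the log2 fold change was 0.24 (SE 0.09, adjusted p = 0.113). Its SD was small beside this change, at 1.40 CPM in responders (n = 5) and 0.954 CPM in controls (n = 5).

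The window before Emcn, chr3:137340828-137341077 on the plus strand of GRCm38.p6, is shown beside that of Icam1 because both genes rose in responders against controls. It held none of the 3 motifs, so it has no capitals.

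Emcn: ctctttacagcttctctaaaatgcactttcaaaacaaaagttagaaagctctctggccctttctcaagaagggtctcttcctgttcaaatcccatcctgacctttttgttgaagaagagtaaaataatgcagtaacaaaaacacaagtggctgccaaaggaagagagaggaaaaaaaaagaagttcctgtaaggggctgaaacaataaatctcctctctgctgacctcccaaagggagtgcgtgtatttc

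Cdh5 (ENSMUSG00000031871, chr8:104101625-104144511, plus strand) encodes VE-cadherin, the adhesion protein of endothelial junctions. It was at 60.4, 75.8, 70.2, 89.8 and 77.7 CPM in responders 24L, 26R, 30L, 30R and 35L, at 75.5, 52.7, 77.9 and 43.2 CPM in non-responders 29L, 32R, 33L and 33R, and at 67.1, 41.2, 77.5, 70.8 and 67.4 CPM in controls 14L, 14R, 16R, 17R and 20R. The groups overlapped over most of their range, and responder 24L lay below 4 of the 5 controls. Neither comparison passed, with log2 fold changes of 0.26 (SE 0.19, adjusted p = 0.402) against non-responders and of 0.21 (SE 0.18, adjusted p = 0.501) against controls. The first was 0.40 without 33L and 0.14 without 33R, and the second 0.09 without 14R and 0.13 without 30R.

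Vwf (ENSMUSG00000001930, chr6:125546774-125686679, plus strand) encodes von Willebrand factor, which endothelial cells store and release to bind platelets. It had the fewest counts, with 6.54, 3.18, 5.02, 4.89 and 3.92 CPM in responders 24L, 26R, 30L, 30R and 35L. The non-responders 29L, 32R, 33L and 33R had 2.69, 1.76, 4.76 and 1.71 CPM, and the controls 14L, 14R, 16R, 17R and 20R had 3.98, 2.07, 4.23, 2.82 and 2.74 CPM. Its fitted change against non-responders was the largest of the vessel genes, 0.79 on the log2 scale, with a large error (SE 0.32, adjusted p = 0.120). Non-responder 33L lay above the other 3, within the range of the responders, and without it the log2 fold change was 1.21 (adjusted p = 0.0261). Against controls the log2 fold change was 0.58 (SE 0.29, adjusted p = 0.218).

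Of the receptor kinases, Tie1 passed the test against controls only, and the other 3 passed it in neither comparison. Tie1 (ENSMUSG00000033191, chr4:118471191-118490061, minus strand) encodes an orphan receptor that modulates signalling through the product of Tek. Its levels were 24.1, 22.9, 23.6, 28.3 and 25.8 CPM in responders 24L, 26R, 30L, 30R and 35L, 23.2, 16.1, 22.1 and 17.6 CPM in non-responders 29L, 32R, 33L and 33R, and 19.0, 13.7, 21.8, 19.2 and 18.6 CPM in controls 14L, 14R, 16R, 17R and 20R. All responders lay above all controls, and 4 of 5 above all non-responders. Tie1 rose by 0.43 on the log2 scale against controls (SE 0.13, adjusted p = 0.0365, exact permutation p = 0.00794). That call held in 6 of 14 fits without 1 tumor and was lost without 14L, 14R, 17R, 20R, 24L, 30L, 30R or 35L, with an adjusted p between 0.0518 and 0.0931. It held in 9 of the 11 other ways of processing (adjusted p up to 0.0642). Against non-responders the log2 fold change was 0.34 (SE 0.14, adjusted p = 0.121).

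Kdr (ENSMUSG00000062960, chr5:75932827-75978458, minus strand) encodes VEGFR2, the main signalling receptor for VEGF-A. It stood at 22.2, 26.1, 23.8, 28.1 and 24.4 CPM in responders 24L, 26R, 30L, 30R and 35L, at 20.9, 17.8, 27.5 and 13.7 CPM in non-responders 29L, 32R, 33L and 33R, and at 26.2, 14.1, 22.8, 20.7 and 23.2 CPM in controls 14L, 14R, 16R, 17R and 20R. The responders spanned 22.2 to 28.1 CPM, and in each of the other 2 groups the highest and the lowest tumor came from the same mouse, 14 or 33. The log2 fold change was 0.32 against non-responders (SE 0.19, adjusted p = 0.282) and 0.22 against controls (SE 0.17, adjusted p = 0.448). It was 0.52 without 33L and 0.20 without 33R in the first comparison, and 0.11 without 14R in the second. Its upstream window, chr5:75978456-75978705 on the minus strand of GRCm38.p6, is shown as the vessel gene with a match; the capitals mark the ETS core, from -153 to -148, read on the opposite strand.

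Kdr: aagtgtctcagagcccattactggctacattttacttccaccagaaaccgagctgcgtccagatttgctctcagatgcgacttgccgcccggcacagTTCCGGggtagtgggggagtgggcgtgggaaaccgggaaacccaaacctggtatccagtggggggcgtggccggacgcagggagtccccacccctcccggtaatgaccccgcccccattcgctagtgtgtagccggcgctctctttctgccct

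Flt1 (ENSMUSG00000029648, chr5:147561604-147726011, minus strand) encodes VEGFR1, which binds VEGF tightly and also exists in a soluble form. Its levels were 38.3, 38.9, 41.3, 36.8 and 36.5 CPM in responders 24L, 26R, 30L, 30R and 35L, 47.6, 31.8, 42.1 and 24.5 CPM in non-responders 29L, 32R, 33L and 33R, and 40.3, 28.6, 36.2, 40.2 and 35.4 CPM in controls 14L, 14R, 16R, 17R and 20R. The group means were close, at 38.3 ± 1.94 CPM for responders (SD, n = 5), 36.5 ± 10.3 CPM for non-responders (SD, n = 4) and 36.1 ± 4.76 CPM for controls (SD, n = 5), with the widest spread among the non-responders. Its log2 fold change against non-responders, 0.07 (SE 0.16, adjusted p = 0.813), was the smallest of the 10 and ran from -0.06 without 33R to 0.22 without 29L. The 95% interval of the fold ran from 0.832 to 1.32, so a difference of that size in either direction was not excluded.

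Tek (ENSMUSG00000006386, chr4:94739289-94874976, plus strand) encodes TIE2, the receptor of the angiopoietins. It was at 6.31, 4.98, 5.71, 7.59 and 5.82 CPM in responders 24L, 26R, 30L, 30R and 35L, at 5.83, 3.24, 6.37 and 3.36 CPM in non-responders 29L, 32R, 33L and 33R, and at 5.51, 3.93, 6.25, 4.90 and 4.96 CPM in controls 14L, 14R, 16R, 17R and 20R. The groups overlapped, and the lowest 3 tumors were the right-flank tumors 32R, 33R and 14R. The log2 fold change was 0.37 (SE 0.21, adjusted p = 0.272) against non-responders and 0.25 (SE 0.20, adjusted p = 0.444) against controls. Without 33L the first was 0.57 and without 32R 0.23, and without 30R the second was 0.16.

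Against control IgG, responders had 4 of the 10 genes called higher (Icam1, Emcn, Tie1 and Vcam1) and 0 called lower. Of all genes tested, 7.88% were called higher and 5.3% lower in this comparison. The groups did not overlap in 3 of the 10 (Icam1, Emcn and Tie1), against 15.1% of all genes, and 5 of 10 had an unadjusted p under 0.05, against 27.9% of all genes. All 10 log2 fold changes were positive, with a median of 0.33, against 48.4% of all genes and a median of -0.01. Here too the signs of the vessel genes are not separate observations. This comparison and the one against non-responders share the 5 responder tumors, so their values are not independent of each other.

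Between non-responders and control IgG, 0 of the 10 genes were called by edgeR, DESeq2 or limma-voom, and 0 had an unadjusted p under 0.05. Among all genes edgeR called 0% and 4.65% had an unadjusted p under 0.05. The log2 fold changes ran from -0.21 for Vwf and Icam1 to 0.16 for Emcn, 4 positive and 6 negative, and the smallest adjusted p was 0.931. The 95% interval of the fold ran from 0.681 to 1.10 for Icam1, from 0.753 to 1.07 for Vcam1 and from 0.542 to 1.37 for Vwf.

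Within groups, the vessel genes moved together from tumor to tumor, whereas the adhesion genes did not follow them closely. With group means removed, Pearson's r of log2 CPM over the 14 tumors ran from 0.23 to 0.91 among the 28 pairs of vessel genes, with a median of 0.71. The closest pairs were Pecam1 with Tie1 (0.91) and Cdh5 with Kdr (0.90), and Emcn was the least tied to the rest, down to 0.23 with Flt1. Vcam1 had an r of -0.25 to 0.59 with the vessel genes (median 0.16) and Icam1 of -0.42 to 0.16 (median -0.15), and their r with each other was 0.28. These values are descriptions over tumors that share a library type and, in 3 mice, an animal. Markers of neighbouring tissue varied with them: with group means removed, the 7 epidermis markers had an r of 0.53 to 0.69 with the vessel mean (median 0.60), and the 7 skeletal muscle markers of -0.47 to -0.22 (median -0.42). The part of these tissues in the vessel values was not tested. Over the 8 macrophage markers, r with the vessel mean ran from -0.53 (C1qa) to 0.79 (Csf1r), with a median of 0.12. Emcn had the shortest mean effective length (explained below) of the 10 genes, 1321 bases, and Icam1 the next, 2255 bases. The part of transcript length in these correlations was not tested.

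**Figure D3:**
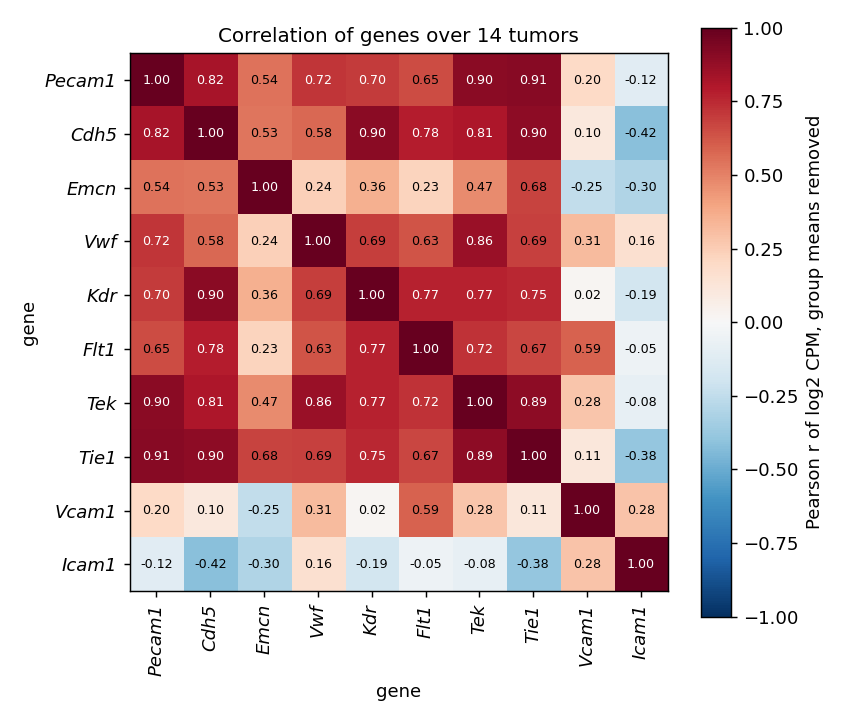
Pearson's r between the 10 genes over the 14 tumors, from log2 CPM with each group's mean removed; rows and columns are genes and the color scale runs from -1 to 1. The 8 vessel genes form a block of positive values (0.23 to 0.91), outside which Vcam1 and Icam1 lie.

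The mean log2 CPM of the 8 vessel genes averaged 4.53 ± 0.11 (SD, n = 5) over responders, 4.17 ± 0.35 (SD, n = 4) over non-responders and 4.21 ± 0.24 (SD, n = 5) over controls. The lowest tumors were 14R (3.80), 33R (3.84) and 32R (3.90), and the non-responder 33L (4.53) lay within the range of the responders (4.40 to 4.70). Icam1 separated tumors of like vessel level: 33L and responder 30L had vessel means of 4.53 and 4.54, but 14.6 and 29.9 CPM of Icam1. The log2 ratio of Icam1 to the vessel mean averaged 0.11 ± 0.26 (SD, n = 5) over responders, -0.37 ± 0.36 (SD, n = 4) over non-responders and -0.24 ± 0.49 (SD, n = 5) over controls. That of Vcam1 was 4.06 ± 0.21, 3.91 ± 0.21 and 4.02 ± 0.35 in the same order. Both ratios overlapped between responders and each other group, and control 14R, with few vessel counts, had the highest of either. It was thus not shown that Vcam1 or Icam1 rose by more than the vessel genes did, since that difference was not tested.

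**Figure D4:**
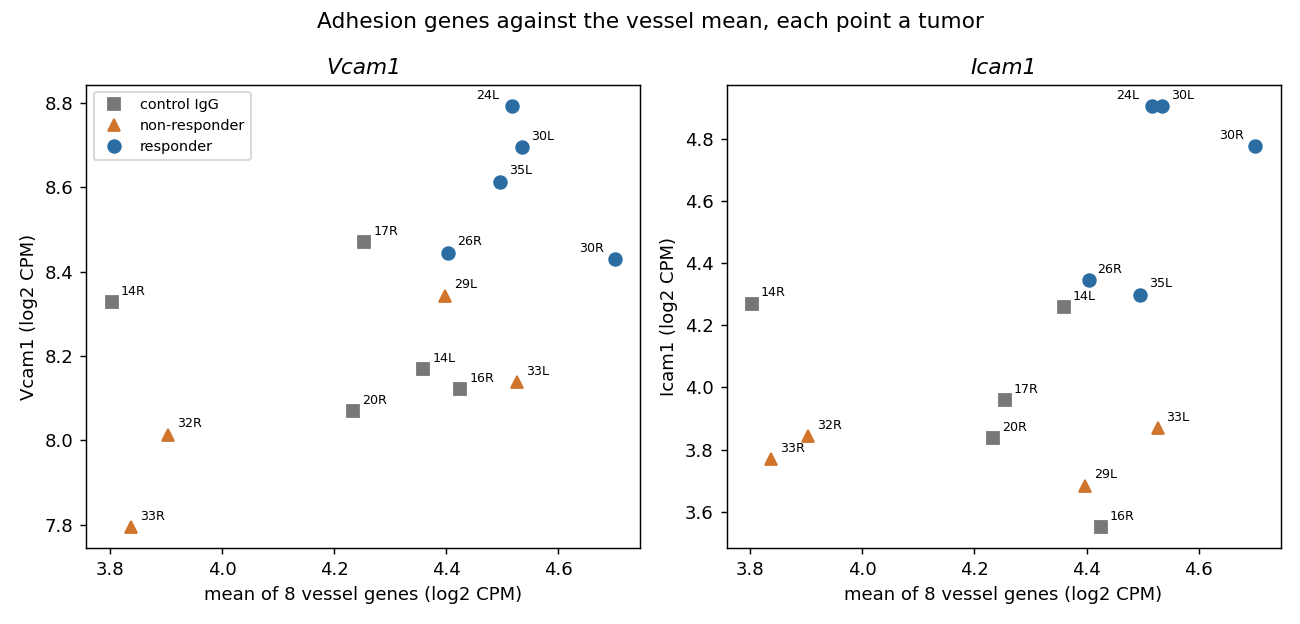
Log2 CPM of Vcam1 (left) and Icam1 (right) against the mean log2 CPM of the 8 vessel genes, each point a tumor, marked by group. Responders lie at the upper right of each panel (vessel mean 4.40 to 4.70), while 14R, 33R and 32R lie at the left (3.80 to 3.90).

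Tumors on the 2 flanks of a mouse could differ as much as tumors of different groups. In mouse 14 (control), the right tumor was lower than the left in 8 of 10 genes, with a median difference of -0.48 on the log2 scale, down to -0.92 for Vwf. In mouse 33 (non-responder) it was lower in 9 of 10, with a median of -0.56 and values of -1.45 for Vwf and -0.996 for Kdr. In mouse 30 (responder) the right tumor was higher in 6 of 10, with a median of 0.13. Icam1 differed little between flanks, by 0.01, -0.10 and -0.13 in mice 14, 33 and 30. The vessel gene Emcn also differed less than most, by -0.22, 0.11 and 0.05 in the same order. Emcn and Icam1 had the shortest mean effective lengths of the 10 genes (explained below), and 33R had the longest fragments. Epidermis markers summed to 725 CPM in 14L and 7.60 CPM in 14R, and to 11.8 CPM in 30L and 1001 CPM in 30R. Muscle markers reached 1204 CPM in 14R. The part of library, tissue or length in the flank differences was not tested.

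Transcript length changed what TPM showed for Flt1 and Vwf. The deposited effective length of a gene is an average over its transcripts weighted by their estimated amounts, and it varied across tumors by 1.58 times for Flt1, from 4059 bases in 29L to 6410 in 14R, and by 3.98 times for Vwf, from 1308 in 14R to 5213 in 33L. For Tek it varied by 1.48 times, and for the other 7 genes by at most 1.16 times. Flt1 in 29L was therefore 13.5 TPM against 7.93 TPM in 33L, while their CPM were 47.6 and 42.1. For Vwf, control 14R had the lowest CPM of the controls (2.07) and their highest TPM (1.69). Whether these lengths reflect transcript use or the estimation of few reads was not tested.

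**Figure D5:**
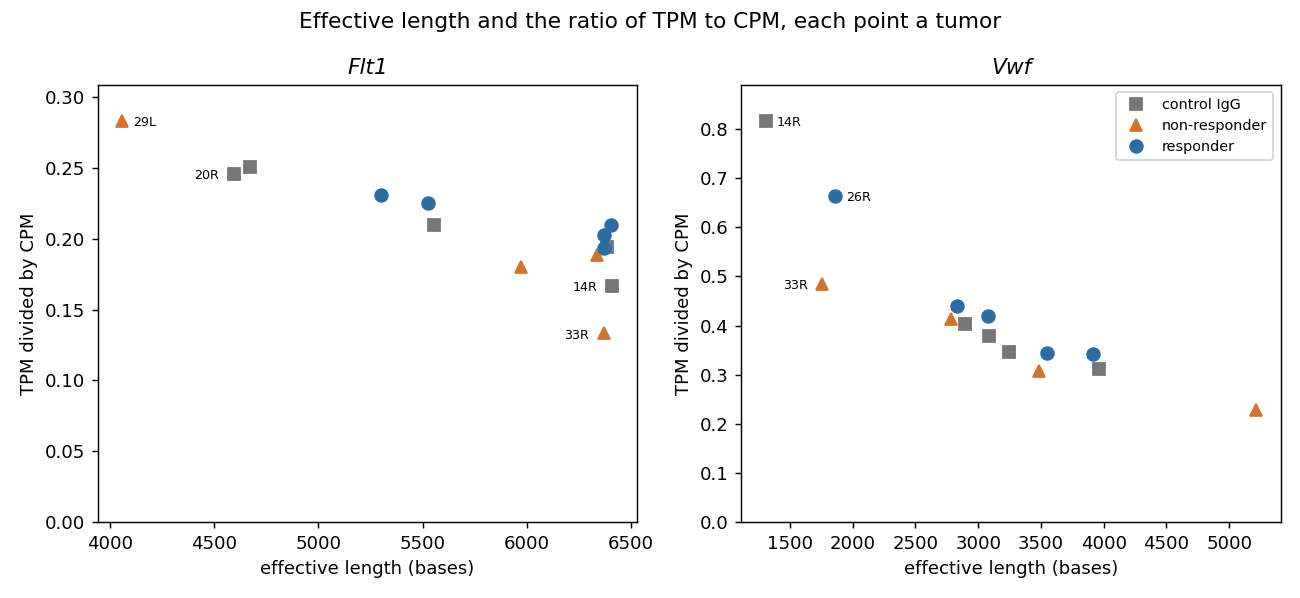
The ratio of TPM to CPM (vertical axis from 0) against the deposited effective length in bases for Flt1 (left) and Vwf (right), each point a tumor. The ratio falls as the length grows, from 4059 bases in 29L for Flt1 and 1308 bases in 14R for Vwf, and 33R lies below the other tumors of like length.

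Around these 10 genes, other lists of vessel and adhesion genes were read from the same fit. Of 10 ligands of the VEGF and angiopoietin families and related factors, 0 were called higher and 1 lower against non-responders, and 2 higher (Vegfc and Vegfd) and 1 lower against controls. Apln, the gene called lower in both, encodes the ligand of the apelin receptor on sprouting vessels and averaged 49.9 ± 3.53 CPM (SD, n = 5) among responders, lower than the 63.4 ± 6.43 CPM (SD, n = 4) of non-responders (adjusted p = 0.0232) and the 68.3 ± 4.84 CPM (SD, n = 5) of controls (adjusted p = 0.0027). The call against non-responders was lost without 24L, 30R, 32R, 33L or 33R, with an adjusted p between 0.0502 and 0.0615. Of the 11 other ways of processing, it held in 8 (adjusted p up to 0.601), and the call against controls in 9 (adjusted p up to 0.0724). Vegfd, a ligand of the lymphatic receptor VEGFR3, rose by 0.40 on the log2 scale against controls (SE 0.09, adjusted p = 0.0127). The call of Vegfc against controls (0.67 on the log2 scale, adjusted p = 0.0420) held in 5 of 14 fits, and was lost without 14L, 14R, 16R, 17R, 20R, 24L, 30L, 30R or 32R, with an adjusted p between 0.0548 and 0.124. Vegfa, the chief ligand of Kdr, had a log2 fold change of -0.24 against non-responders (SE 0.13, adjusted p = 0.261).

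Of 12 further angiogenic receptors and co-receptors, 2 were called higher against non-responders and 3 against controls (S1pr1 in addition, a receptor that steadies endothelial junctions), with 0 lower in either. Eng and Acvrl1, a co-receptor and a receptor for BMP9 on endothelium, were the called genes in both comparisons. Acvrl1 averaged 45.9 ± 3.72 CPM (SD, n = 5) among responders. Its means were 34.6 ± 1.65 CPM for the 4 non-responders (adjusted p = 0.018) and 33.1 ± 4.07 CPM for the 5 controls (adjusted p = 0.00368). Eng rose by 0.48 (adjusted p = 0.0308) and 0.49 (adjusted p = 0.0149) on the log2 scale. Against non-responders, Acvrl1 lost its call without 24L (adjusted p = 0.0512) or 32R (adjusted p = 0.0548), and Eng lost it without 24L, 30R, 32R or 33R (adjusted p between 0.0725 and 0.0779). S1pr1 was higher by 0.25 on the log2 scale against controls (adjusted p = 0.0369), which held in 5 of 14 fits. It was lost without 14L, 14R, 16R, 17R, 20R, 24L, 26R, 30L or 30R (adjusted p between 0.0532 and 0.0960). Of 9 genes of the Notch pathway tested, edgeR called 0 against non-responders, with 2 at an unadjusted p under 0.05 and 0 by DESeq2 or limma-voom, and 1 higher (Hey1) against controls, by 0.62 on the log2 scale (adjusted p = 0.0305), a call held in 7 of 14 fits without 1 tumor (lost without 14R, 16R, 17R, 20R, 24L, 26R or 30L, with an adjusted p between 0.0530 and 0.0739).

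Of 25 other genes of endothelial identity, 2 rose (Icam2 and Ecscr) and 1 fell against non-responders, and 9 rose and 1 fell against controls. Without 33R, 12 rose and 1 fell against controls. Ecscr lost its call against non-responders without 24L, 30L, 30R, 32R or 33L (adjusted p between 0.0572 and 0.0793). Icam2, an endothelial ligand of LFA-1, averaged 11.6 ± 1.17 CPM (SD, n = 5) among responders, 8.14 ± 2.11 CPM (SD, n = 4) among non-responders and 7.20 ± 0.341 CPM (SD, n = 5) among controls. Its adjusted p was 0.0057 against controls, and 0.0423 against non-responders, a call that held only without 29L, 33R or 14R, in 3 of the 14 fits that left out 1 tumor (adjusted p between 0.0509 and 0.114 in the others). The gene that fell was Esm1, endocan, a secreted proteoglycan of tip cells, which averaged 259 ± 76.1 CPM (SD, n = 5) among responders against 444 ± 43.9 CPM (SD, n = 4) among non-responders (adjusted p = 0.0139) and 484 ± 50.6 CPM (SD, n = 5) among controls (adjusted p = 0.0025). Esm1 and Cd34 were far more abundant than the vessel genes, with means of 248 and 459 TPM over the 14 tumors against 32.3 TPM for Pecam1. With group means removed, Esm1 had an r of 0.15 and Cd34 of -0.43 with the vessel mean, while Mmrn2 (0.90) and Plvap (0.85) followed it. Naming Cd34, Mmrn2 and Plvap here followed a look at their values. No list of cancer cell markers was read, and which cells gave the RNA of Esm1, Cd34 and Apln, cancer cells included, was not tested. Sox18, a transcription factor of vessel development, was higher against controls by 0.75 on the log2 scale (SE 0.13, adjusted p = 0.0024), with 0.01 against non-responders (SE 0.13, adjusted p = 0.961).

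Of 10 further adhesion molecules tested, edgeR called 0 in either comparison. At an unadjusted p under 0.05 there were 2 against non-responders and 6 against controls, DESeq2 called 1 and 4, and limma-voom called 1 and 2. Selp, P-selectin of endothelium and platelets, had log2 fold changes of 0.74 (SE 0.25, adjusted p = 0.0750) and 0.70 (SE 0.24, adjusted p = 0.0626). Sele, E-selectin, had -0.07 (SE 0.20, adjusted p = 0.846) and -0.53 (SE 0.19, adjusted p = 0.0772). Selp and Sele were picked with their values known, as was Vegfa above.

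The counter-receptors by which leukocytes meet these ligands, mostly integrins, rose in larger numbers: 6 of 11 against non-responders, with 0 lower, and 7 higher with 1 lower (Itgb1) against controls. Itgal, the alpha chain of LFA-1, averaged 54.8 ± 13.4 CPM (SD, n = 5) among responders against 21.4 ± 5.78 CPM (SD, n = 4) among non-responders (adjusted p = 0.0066) and 25.2 ± 5.19 CPM (SD, n = 5) among controls (adjusted p = 0.0034). Itgb2, the beta chain of LFA-1, rose by 0.74 (adjusted p = 0.0166) and 0.96 (adjusted p = 0.0019) on the log2 scale. Among 10 tested cytokines and receptors known to act on adhesion genes, 4 rose against non-responders (Ifng, Ltb, Tnfrsf1b and Ifngr1), and the same 4 rose and 1 (Il1r1) fell against controls. The call of Ltb against non-responders was lost without 24L (adjusted p = 0.0506) or 32R (adjusted p = 0.0548). Ifng, interferon gamma, averaged 1.59 ± 0.673 CPM (SD, n = 5) among responders against 0.450 ± 0.0909 CPM (SD, n = 4) among non-responders (adjusted p = 0.0139) and 0.463 ± 0.213 CPM (SD, n = 5) among controls (adjusted p = 0.0051). Tnf, tumor necrosis factor, was not called, with log2 fold changes of 0.62 (adjusted p = 0.189) and 0.56 (adjusted p = 0.202) in the same order. Nor was Il1b, with -0.03 (adjusted p = 0.966) and -0.33 (adjusted p = 0.581). Tnf and Il1b were named with their values known.

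Of 12 pericyte and mural genes, 0 rose and 1 fell in each comparison, Kcnj8, a potassium channel of pericytes, by 0.73 against non-responders (adjusted p = 0.0201) and by 0.84 against controls (adjusted p = 0.0048) on the log2 scale. Of all genes tested, 4.82% and 5.3% were called lower in these comparisons. The call of Kcnj8 against non-responders held in 9 of the 11 other ways of processing (adjusted p up to 0.150), and that against controls in 11. Of 3 lymphatic genes tested, edgeR, DESeq2 and limma-voom called 0 in both comparisons, with 0 at an unadjusted p under 0.05.

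Markers of other cells moved with the groups as well, and their part in the values of Vcam1, Icam1 and Pecam1 was not tested. The 7 leukocyte and T cell markers summed to 164 to 262 CPM in responders, 96.8 to 118 CPM in non-responders and 91.4 to 140 CPM in controls, and 6 of 7 were called higher against non-responders and 7 of 7 against controls. Without 33R these counts were 4 and 7. Against controls, for instance, Cd3d lost its call without 16R, 20R or 24L, and Cd3g without 20R or 24L (adjusted p between 0.0557 and 0.0741). The 8 macrophage markers summed to 1792 to 2209, 1452 to 1806 and 1578 to 1818 CPM, with 1 of 8 (Adgre1) called higher in each comparison. The 8 fibroblast markers summed to 2805 to 4686, 2264 to 4209 and 2342 to 3012 CPM, with 1 higher against non-responders (Col1a2), and 3 higher (Col1a1, Col1a2 and Pi16) and 1 lower (Dcn) against controls. Col1a2 against non-responders held in 3 of 14 fits without 1 tumor, and was lost without 14L, 16R, 17R, 20R, 24L, 29L, 30L, 30R, 32R, 33R or 35L (adjusted p between 0.0586 and 0.119). Against controls, Col1a1 held in 7 and was lost without 14R, 16R, 17R, 20R, 24L, 30L or 30R (adjusted p between 0.0505 and 0.109). Adgre1 held in 9 and was lost without 14L, 16R, 20R, 24L or 30R (adjusted p between 0.0507 and 0.0755), and Pi16 in 12, lost without 20R (adjusted p = 0.0507) or 24L (adjusted p = 0.0549). The 6 dendritic cell markers had 4 called higher in each comparison (Flt3, Xcr1, Clec9a and Ccr7), of which Flt3 lost its call against non-responders without 24L, 30R, 32R or 33R (adjusted p between 0.0535 and 0.0688). The 6 erythroid markers summed to 59.4 to 283, 376 to 2067 and 71.5 to 1911 CPM, with 5 called lower against non-responders and 3 against controls by edgeR, 2 and 0 by limma-voom, and 1 and 3 by edgeR without 33R. The 5 platelet markers tested, which bear on Vwf, Selp and Pecam1, had 0 called in each comparison by edgeR, DESeq2 and limma-voom, with 0 and 2 at an unadjusted p under 0.05. The markers of epidermis, muscle and fat also had 0 called by the 3 tools, and 0 at an unadjusted p under 0.05, but varied widely within groups. The epidermis markers summed to 11.8 (30L) to 1001 CPM (30R) in responders, 135 (33R) to 303 CPM (32R) in non-responders and 7.60 (14R) to 725 CPM (14L) in controls. The muscle markers summed to 23.8 (30L) to 415 CPM (24L), 91.3 (29L) to 696 CPM (33R) and 127 (17R) to 1204 CPM (14R) in the same order. Tumors 14R and 33R, lowest in epidermis and highest in muscle markers of their groups, were also the lowest of their groups in the vessel mean.

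The genes most like the vessel mean, by r with group means removed over the 14 tumors among 12194 genes, included Adgrf5 (0.96), C1qtnf1 (0.94), Myo1d (0.94), Lama4 (0.94), Prrg3 (0.91), Robo4 (0.91), Prex2 (0.91), Mcam (0.91) and Pcsk6 (0.91). The genes most like Icam1 included Irgm1 (0.97), Tgtp2 (0.96), Tgtp1 (0.96) and Irgm2 (0.96). These encode interferon-induced GTPases. The genes most like Vcam1 were Soat1 (0.90), Fgf10 (0.88), Fgf7 (0.87), Pthlh (0.87) and Itpk1 (0.86). The lists for Icam1, Vcam1 and the vessel mean held no gene in common.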

How the data were processed

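Total RNA of each tumor was enriched with oligo(dT) beads and sequenced. The submitters' processing notes name STAR and RSEM on mm10 without versions, and the study's methods give STAR v2.5 in their account of RNA-seq of cultured lines; the deposited tables hold the expected counts, TPM and FPKM of each gene, 1 table per tumor. Expected counts were rounded and TPM kept as the authors' values; the deposited FPKM were not used. Ensembl IDs were matched to GENCODE M21 symbols (53620 of 53801 genes). The genes and lists were chosen with earlier results of these data known, and the rule named all 10 members, up to 3 called genes of each other list with the largest changes, and the genes most alike; a few genes this rule selects are not reported here.

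The test was edgeR 4.0.16 (R 4.3.3): filterByExpr, TMM, quasi-likelihood fit of 3 group means over 14 tumors, Benjamini-Hochberg adjustment over 16287 genes, called at an adjusted p under 0.05. All p-values are two-sided, and exact permutation tests over tumors (scipy 1.17.1) are unadjusted. Tumors of a mouse were treated as separate, in the fits and in the permutation tests. The alternatives address this for the fits only, and the permutation tests were not redone by mouse. log2 CPM used a prior count of 2. Alternatives used DESeq2 1.42.0, limma 3.58.1, other scaling, no filter, a gene length offset, log2(TPM + 1) and log2(TPM + 0.1), tumors of a mouse summed, and each tumor left out. Scripts were tested on simulated data. Strand of counting is not given in the sources used here; Icam1 shares 11.7% of its exon bases with the antisense gene Gm47079, which had a mean count of 2.0. Motifs were searched in RefSeq sequence of GRCm38.p6.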

Additional observations from a re-analysis of the deposited data

Results flagged for a closer look

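Cdh5 in control tumor 14R (41.2 CPM) stood apart from the other 4 controls: its gap to the nearest, divided by the range of the group, was 0.772, above the Dixon value of 0.710 for 5 tumors. It was 1 of 30 groups examined (10 genes in 3 groups), and chance alone puts about 1 group in 20 past that value. The same tumor was also the lowest control for Pecam1, Emcn, Vwf, Kdr, Flt1, Tek and Tie1.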

How the results depend on the processing

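The count of the 10 genes called was 2 against non-responders and 4 against controls, and no log2 fold change that was called changed sign under any alternative. Limma on log2(TPM + 1) and on log2(TPM + 0.1) called 5 each against non-responders (Pecam1, Emcn and Vwf beside Icam1 and Vcam1) and 2 each against controls (Icam1 and Emcn). On that scale the median of all genes also moved, by 0.17 at a pseudocount of 1 against non-responders, and the calls over all genes were 1969 higher and 191 lower, against 827 and 785 in edgeR. With an absolute log2 fold change over 1 required, 0 were called in either comparison. Leaving out 1 tumor gave 1 to 3 against non-responders (1 without 24L or 32R, 3 without 33L) and 2 to 5 against controls (2 without 14L, 14R, 20R, 24L, 30L, 30R or 35L, 5 without 26R or 33R). With the tumors of a mouse summed the counts were 2 and 4, and with mouse as a random effect in limma-voom 3 and 5, gaining Vwf and Pecam1 respectively. Between non-responders and controls the count was 0 under each alternative. No paired analysis was possible because the groups share no replicate number. The fewest counts were 54, for Vwf in 33R.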
